A study of Drosophila melanogaster with 8 samples.

Results

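The long non-coding RNAs (lncRNAs) expressed in the larval central nervous system (CNS) are described here across 3 genotypes of Drosophila melanogaster. Members are genes whose symbol carries the prefix for lncRNA, the dosage compensation RNAs roX1 and roX2 left out, and whose level averaged at least 5 CPM over all 8 libraries, where CPM is the number of reads of a gene after each library is scaled to the same total of reads in genes. The rule selected 93 of 1925 lncRNA genes in a table of 17807 genes, and 301 of the 1925 had no read in any library. Libraries were made from total RNA of the CNS dissected from first instar (L1) larvae kept at 25 °C, homozygous larvae having been picked by a visible marker. Larvae mutant for both elav and fne (elav5fne, the double mutant) gave 3 libraries, larvae mutant for elav alone (elav5, the single mutant) gave 2, and Canton-S, a wild-type strain, gave 3. Every mutant library is mutant for elav, and the labels do not say what the mutations remove. elav and fne encode neuronal RNA-binding proteins of the ELAV/Hu family, which act on alternative splicing and polyadenylation. No label says that the mutants were made in the Canton-S background, so the mutations and line background cannot be told apart. Because the members were selected on their mean over these same libraries, that they are expressed is a description. The 3 members nearest above the threshold averaged 5.35 (CR44598), 5.26 (CR45758) and 5.17 CPM (CR44496), and the 3 genes nearest below it 4.90 (CR46271), 4.87 (CR43970) and 4.86 CPM (CR44317).

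An lncRNA is a long transcript without a recognised protein product. Some lncRNAs are precursors from which microRNAs (miRNAs), short RNAs that repress messenger RNAs, are cut, and others act as the RNA itself, for example by gathering proteins in the nucleus. Many lncRNA genes of the fly bear only a CR number and have no described role, and several lie in introns of coding genes or share exon sequence with them. The prefix of the symbols is left out below.

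The 8 libraries held between 30038106 and 38056274 reads in genes, so that 3 reads, a floor that covers counting error only, correspond to between 0.0788 and 0.0999 CPM. elav was at 53.2 to 61.0 CPM in elav5fne, 24.4 to 33.4 CPM in elav5 and 599 to 620.3 CPM in Canton-S, and fne was at 127 to 179 CPM in elav5fne, 938 to 1129 CPM in elav5 and 960 to 1045 CPM in Canton-S. Each gene was thus lower in the genotypes labelled mutant for it, but reads of both remained there, far above the floor. Summed levels of 10 neuron markers were 6735 to 7528 CPM in elav5fne, 10161 to 11575 CPM in elav5 and 12577 to 12831 CPM in Canton-S. Those of 10 neuroblast and progenitor markers were 1185 to 1504 CPM in elav5fne, 418 to 519 CPM in elav5 and 421 to 444 CPM in Canton-S, and none of these 20 markers was at 0 in all libraries. In whole tissue, fewer cells of a type and less RNA per cell cannot be told apart. No label states that libraries of the same genotype were independent dissections, so the p-values rest on the spread between libraries, which may be technical.

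All 93 members matched the reference annotation, as non-coding RNA genes. They lie on chromosome arms 3R (27 members), 3L (24), 2L (17), 2R (12) and X (11) and on chromosome 4 (2). Their exon length ranged from 214 to 21710 bases, with a median of 1176, and 57 of them are annotated with 1 exon. Members that contain a miRNA gene, 20 in all, were set apart first, whatever their position. The rest were grouped by position: 33 lie outside coding genes and 14 share exon sequence with a coding gene. Another 22 lie in an intron of a coding gene on its own strand, and 4 in an intron on the opposite strand. Whether the authors' counting used strand is not given in the sources used here, so the values of members that overlap another gene are uncertain. Coordinates below are those of the dm6 assembly.

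CR42862 and Hsromega held most of the summed level of the members. CR42862 (3L, 224106 to 230964) stood at 2846, 3285 and 3041 CPM in elav5fne, at 2494 and 1864 CPM in elav5 and at 3327, 3254 and 3275 CPM in Canton-S. Hsromega (3R, 21296127 to 21317836), the stress-inducible nuclear RNA that gathers hnRNP proteins into omega speckles, stood at 3373, 3252 and 2962 CPM in elav5fne, at 2489 and 4142 CPM in elav5 and at 1640.0, 2357 and 2236 CPM in Canton-S. Together these RNAs made up 62.7% to 68.0% of the summed CPM of the 93 members in the 8 libraries. Per kb of exon the order changed. CR34335, only 361 bases long, led with 1488 CPM per kb in elav5fne, 1625 in elav5 and 969 in Canton-S, ahead of CR42862 with 557, 397 and 599 CPM per kb in the same genotypes. Hsromega came to 147, 153 and 95.7 CPM per kb in elav5fne, elav5 and Canton-S, since its annotated exon spans 21710 bases.

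**Figure D1:**
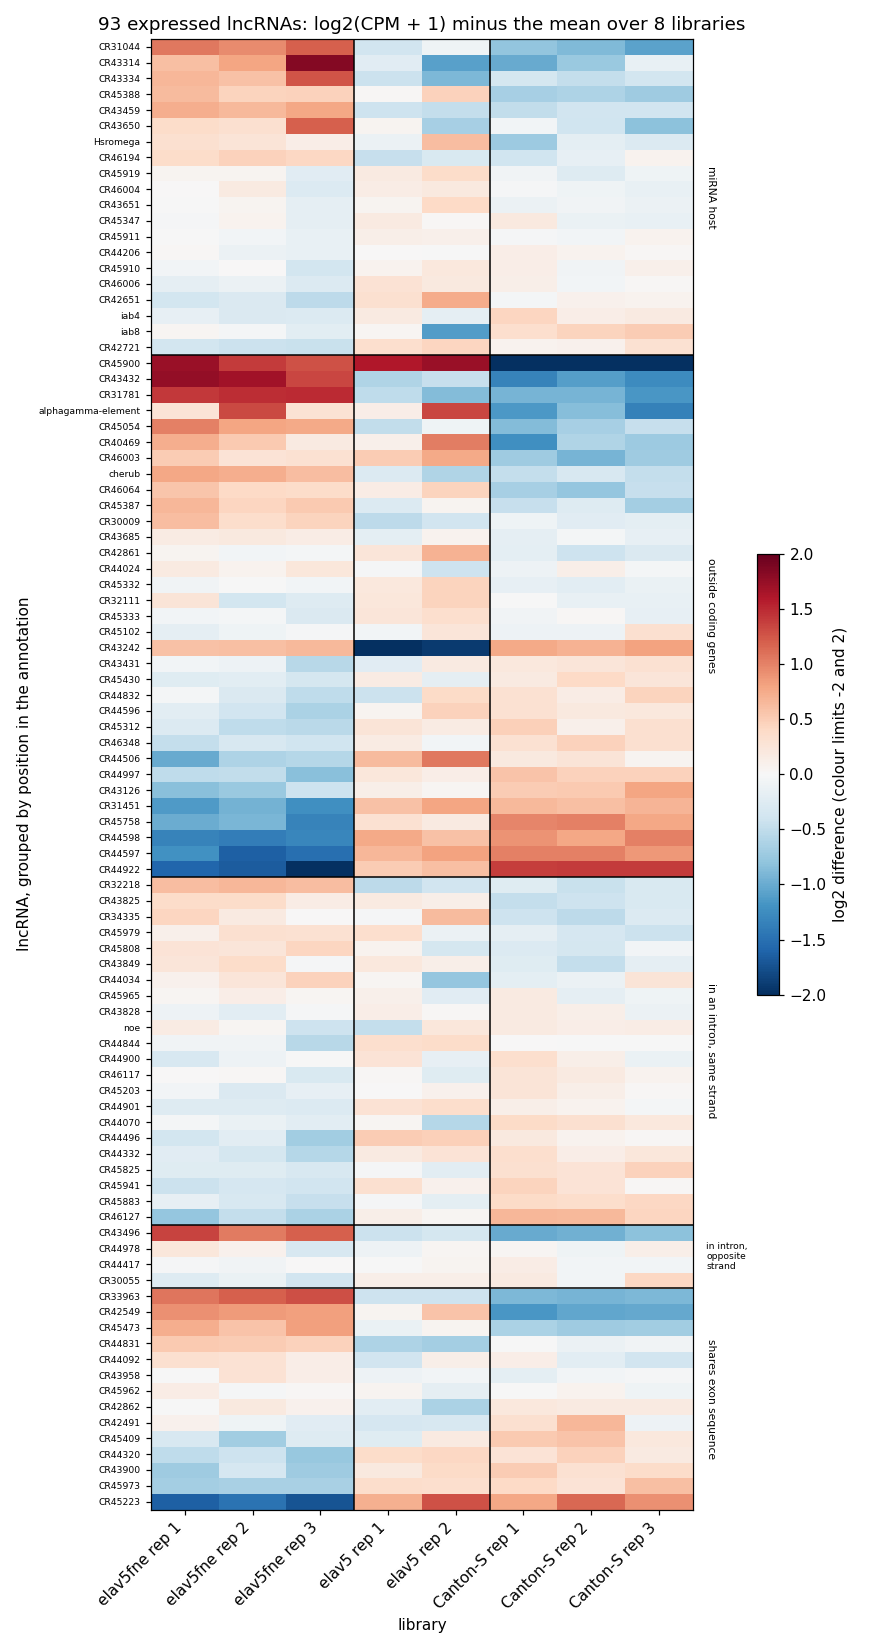
Level of each of the 93 lncRNAs (rows) in the 8 libraries (columns), as log2(CPM + 1) minus its mean over the libraries. Rows are grouped as miRNA hosts and, for the rest, by position in the annotation, and colour limits are -2 and 2. The elav5fne libraries stand apart from the others in both directions, and CR45900 is near 0 in Canton-S only.

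Members were grouped by the genotypes in which their mean reached 1 CPM. By this rule 92 of the 93 were present in all 3 genotypes. The exception was CR45900 (3R, 6858839 to 6859192, 5132 bases from ftz), which stood at 19.0, 14.9 and 13.6 CPM in elav5fne and at 17.2 and 18.9 CPM in elav5. In Canton-S it had a single read over 3 libraries. Pooled over the libraries of a genotype, its level was 1618 times that in Canton-S in elav5fne and 1847 times in elav5. These ratios rest on that single read and are not precise. CR45900 passed the rule through the mutants, where it is high, so no test is given. Both mutants therefore carry this RNA at a like level and the wild-type strain has almost none of it, while ftz, a pair-rule segmentation gene, averaged 1.81 CPM in elav5fne, 0.769 CPM in elav5 and 0.435 CPM in Canton-S.

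CR43242 (2L, 23069005 to 23070724, 619 bases from Spf45) was low in a single genotype. It stood at 14.2, 14.4 and 14.9 CPM in elav5fne, at 1.23 and 1.71 CPM in elav5 and at 16.2, 15.4 and 16.8 CPM in Canton-S. Here elav5fne and Canton-S lie close together and elav5 lies apart, at 0.0908 times the Canton-S mean, although elav5fne is mutant for elav as well. Spf45, a splicing factor gene, averaged 58.3, 61.0 and 54.4 CPM in elav5fne, elav5 and Canton-S. With presence set at 2 CPM, 88 members were present in all 3 genotypes, CR43242 being absent from elav5, and CR44597, CR44598 and CR45758 from elav5fne.

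Changes were tested with limma on log2(CPM + 1) across the 10575 genes that reached 1 CPM in 2 or more libraries, and a gene was called at an adjusted p under 0.05. In elav5fne against Canton-S, 31 of the 93 lncRNAs were called higher, 31 lower and 31 not called, and the median log2 change was -0.06. Among all genes tested 32.5% were called higher and 26.7% lower, with a median of 0.07, and among the 8026 genes that average at least 5 CPM the shares were 30.6% and 30.9%, with a median of 0.00. The lncRNAs, with 33.3% called in each direction, were near this background. Under quantile normalization, which moved the median of all genes to -0.11, 23 members were called higher and 37 lower, beside 25.1% and 35.7% of all genes. A group of 24 members had a genotype mean under 5 CPM and passed the rule through the other genotypes, so they are given below by their values and mean ratios without a test. Of the other 69, 21 were called higher and 19 lower in elav5fne, or 30.4% and 27.5%.

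In elav5 against Canton-S, 19 of the 93 were called higher and 7 lower, with a median log2 change of 0.02 (13 and 4 of the 69). Among all genes tested 8.29% were called higher and 11.8% lower (8.21% and 13.8% of those averaging at least 5 CPM), with medians of -0.04 and -0.07. Of the 69, 18.8% were called higher beside 8.21% of genes averaging at least 5 CPM, and 5.80% lower beside 13.8%. Those genes were not held to 5 CPM in every genotype, as the 69 were, so the sets are not strictly alike. The counts over the 93 fell in several settings that left out 1 library. Without elav5 replicate 2 they were 5 higher and 2 lower, beside 3.58% and 4.13% of all genes. Without Canton-S replicate 1 they were 7 and 2 (3.56% and 5.02% of all genes), without Canton-S replicate 2 they were 8 and 3 (4.55% and 5.45%), and without Canton-S replicate 3 they were 11 and 5 (6.15% and 8.89%), so calls over all genes fell in the same settings.

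In elav5fne against elav5, the comparison that adds the fne mutation, 20 of the 93 were called higher and 27 lower, with a median log2 change of -0.15 (13 and 19 of the 69). Among all genes tested 26.8% were called higher and 16.7% lower, and among those averaging at least 5 CPM 27.0% and 18.9%, with medians of 0.14 and 0.11. Of the 69, 18.8% were called higher and 27.5% lower, beside 27.0% and 18.9% of genes averaging at least 5 CPM. Again, those genes were not held to 5 CPM in every genotype. The direction over all genes depended on the scaling. Quantile normalization moved the median of all genes to -0.07, with 19.4% called higher and 25.7% lower, and gave 17 members higher and 41 lower. Median-ratio scaling moved the median to 0.03, with 21.2% of all genes higher and 20.7% lower, and gave 18 members higher and 32 lower. The comparisons of the mutants with Canton-S share the Canton-S libraries.

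Among members at 5 CPM in every genotype, CR44922, CR45223 and CR31451 fell most in elav5fne. CR44922, outside coding genes (3R, 4375084 to 4377600) stood at 22.8, 21.5 and 16.4 CPM in elav5fne, at 101 and 107 CPM in elav5 and at 184, 188 and 187 CPM in Canton-S. The genotypes do not overlap and form a graded order. Its log2 change was -3.16 in elav5fne (SE 0.12, limma adjusted p = 1.5e-06), -0.84 in elav5 (SE 0.13, adjusted p = 0.0072) and -2.32 in elav5fne against elav5 (SE 0.13, adjusted p = 1.2e-05). Sfxn1-3, a mitochondrial carrier gene 1000 bases away on the same strand, averaged 142 CPM in elav5fne, 299 CPM in elav5 and 217 CPM in Canton-S, with log2 changes of -0.61 in elav5fne and 0.46 in elav5, both called, so the neighbours moved in opposite directions in elav5.

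CR31451 (3R, 23983503 to 23985065, named mimi in the reference annotation) fell in elav5fne alone of the mutants. It stood at 129, 146 and 121 CPM in elav5fne, at 427 and 489.5 CPM in elav5 and at 446, 429.6 and 456 CPM in Canton-S. Its log2 change was -1.75 in elav5fne (SE 0.09, limma adjusted p = 3.3e-06) and 0.04 in elav5 (SE 0.10, adjusted p = 0.79), and the difference between the mutants was -1.79 (SE 0.10, adjusted p = 1.2e-05). CG13603, 148 bases away on the opposite strand, was called higher in elav5fne with a log2 change of 0.61.

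CR45223 (3R, 17646903 to 17653478) shares 477 bases of exon with CG14322 on the opposite strand. Levels were 6.48, 7.32 and 5.996 CPM in elav5fne, 37.2 and 55.4 CPM in elav5 and 38.8, 50.7 and 42.9 CPM in Canton-S. elav5fne lay below every other library, with a log2 change of -2.57 against Canton-S (SE 0.17, limma adjusted p = 1.0e-05) and of -2.62 against elav5 (SE 0.19, adjusted p = 3.0e-05), while CG14322 changed by -0.41 in elav5fne.

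Smaller falls in elav5fne were those of CR43126 (log2 change -1.27) and CR44997 (-1.10), outside coding genes, and of CR45973 (-1.08), CR43900 (-0.98) and CR44320 (-0.87), which share exon sequence with one. CR43126 (3R, 28586048 to 28591386, 784 bases from fkh) stood at 4.61, 4.99 and 6.50 CPM in elav5fne, at 9.82 and 9.25 CPM in elav5 and at 13.2, 13.4 and 16.2 CPM in Canton-S, again a graded order without overlap. fkh, a forkhead transcription factor gene, went the other way in elav5fne, with a log2 change of 0.54. CR43900 (2R, 12259409 to 12260813) shares 199 bases of exon with Cam, the calmodulin gene, on the same strand, and Cam fell as well, with a log2 change of -1.72, so its reads and those of Cam may not be separate.

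The low members CR44597, CR44598 and CR44596 lie close together on 2L. CR44597 (2L, 12571160 to 12571606) stood at 1.96, 1.21 and 1.40 CPM in elav5fne, at 9.82 and 10.9 CPM in elav5 and at 12.8, 12.8 and 11.4 CPM in Canton-S. Next to it, CR44598 (2L, 12570672 to 12571157) stood at 1.03, 0.947 and 1.06 CPM in elav5fne, at 7.59 and 6.68 CPM in elav5 and at 8.49, 7.69 and 9.28 CPM in Canton-S. The mean ratios of elav5fne to Canton-S were 0.123 for CR44597 and 0.119 for CR44598, and the elav5 means were 0.840 and 0.841 times the Canton-S means. CR44596, on the plus strand, averaged 3.95 ± 0.711 CPM in elav5fne, 6.89 ± 1.56 CPM in elav5 and 6.71 ± 0.324 CPM in Canton-S (SD, n = 3, 2 and 3). It lies 4767 bases from nub, a POU transcription factor gene, which averaged 52.2 CPM in elav5fne, 96.4 CPM in elav5 and 67.4 CPM in Canton-S.

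CR45758 (3L, 22960930 to 22961668) was another low member that was depleted. It stood at 1.65, 1.81 and 1.09 CPM in elav5fne, at 5.53 and 4.97 CPM in elav5 and at 9.42, 9.60 and 7.99 CPM in Canton-S. The mean ratio to Canton-S was 0.169 in elav5fne and 0.583 in elav5. CR44506 (2R, 19692214 to 19697195) differed from this graded order, with 2.06, 3.01 and 3.14 CPM in elav5fne, 8.59 and 11.8 CPM in elav5 and 6.09, 6.39 and 5.44 CPM in Canton-S, so that elav5 was the highest genotype.

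**Figure D2:**
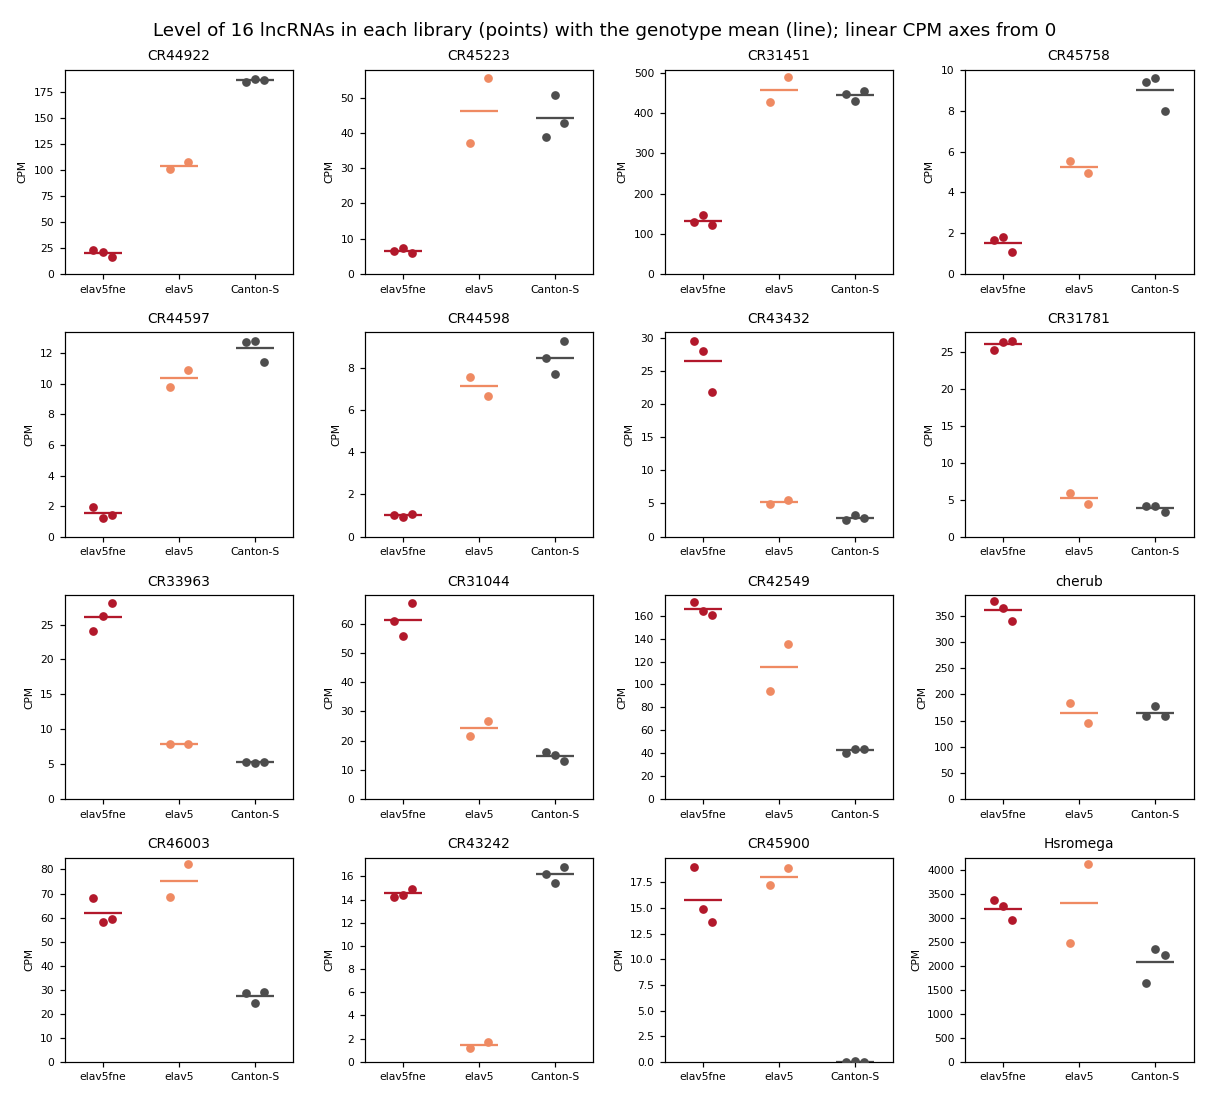
CPM of 16 lncRNAs in each library (points) and the genotype mean (line), on linear axes from 0, by genotype. CR44922 and CR45758 are lowest in elav5fne and intermediate in elav5, CR31451, CR45223, CR44597 and CR44598 are low in elav5fne alone, CR43242 is low in elav5 alone, and CR45900 is near 0 in Canton-S.

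CR43432, CR31781 and CR43496, all low in elav5 and Canton-S, reached levels in elav5fne several times those of both other genotypes. CR43432, outside coding genes (3L, 14976626 to 14977631, named marge in the reference annotation) stood at 29.5, 28.0 and 21.8 CPM in elav5fne, at 4.96 and 5.54 CPM in elav5 and at 2.56, 3.21 and 2.76 CPM in Canton-S. Its mean in elav5fne was 9.29 times that in Canton-S, and the elav5 mean was 1.85 times it. Ocho, a Bearded-family gene of the Notch pathway 586 bases away on the opposite strand, averaged 25.5 CPM in elav5fne, 4.44 CPM in elav5 and 3.38 CPM in Canton-S, much like its neighbour. CR31781 (2L, 16869346 to 16878300) stood at 25.3, 26.4 and 26.5 CPM in elav5fne, at 5.93 and 4.40 CPM in elav5 and at 4.16, 4.18 and 3.39 CPM in Canton-S, a mean ratio of 6.67 for elav5fne and of 1.32 for elav5, and also lies outside coding genes. CR43496 (X, 6758610 to 6759491), in an intron on the opposite strand, averaged 17.3 ± 1.91 CPM in elav5fne, 5.07 ± 0.244 CPM in elav5 and 3.19 ± 0.272 CPM in Canton-S (SD, n = 3, 2 and 3).

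cherub (3R, 11247631 to 11256123) is an lncRNA of neuroblasts, the stem cells of the nervous system, and is known from brain tumours of brat mutants. It stood at 378, 365 and 339 CPM in elav5fne, at 183 and 146 CPM in elav5 and at 159, 177 and 159 CPM in Canton-S. The elav5fne libraries lay above all others, and elav5 overlapped Canton-S. The log2 change was 1.12 in elav5fne (SE 0.10, limma adjusted p = 4.6e-05), -0.01 in elav5 (SE 0.11, adjusted p = 0.94) and 1.14 in elav5fne against elav5 (SE 0.11, adjusted p = 0.00013). Of the 10 neuroblast and progenitor markers, 9 were called higher in elav5fne, all but pros. In elav5, where cherub was not called, 3 were called higher, and none was called lower in either mutant. Of all genes tested, 32.5% were called higher in elav5fne and 8.29% in elav5, and 26.7% and 11.8% lower. The summed level of these markers was 1185 to 1504 CPM in elav5fne, 418 to 519 CPM in elav5 and 421 to 444 CPM in Canton-S. Their part in the level of cherub was not tested.

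Some lncRNAs outside coding genes rose in both mutants. CR46003 (3L, 10286945 to 10307968) stood at 68.3, 58.3 and 59.2 CPM in elav5fne, at 68.6 and 82.1 CPM in elav5 and at 28.7, 24.6 and 28.9 CPM in Canton-S. Every mutant library lay above every Canton-S library, with log2 changes of 1.15 in elav5fne (SE 0.11, limma adjusted p = 7.0e-05) and 1.42 in elav5 (SE 0.12, adjusted p = 0.00084), and the mutants differed by -0.28 (SE 0.12, adjusted p = 0.099). It overlaps CR46004, the host of mir-276b, on the opposite strand, but CR46004 averaged 13.6 CPM in elav5fne, 15.7 CPM in elav5 and 12.96 CPM in Canton-S and was not called in either mutant. CR46064 (2R, 4782892 to 4785543) behaved alike in both mutants. It stood at 28.3, 25.4 and 24.9 CPM in elav5fne, 21.2 and 26.2 CPM in elav5 and 11.6, 10.7 and 13.5 CPM in Canton-S. The log2 changes were 1.08 in elav5fne and 0.93 in elav5 (limma adjusted p = 0.00022 and 0.0065). Exons on the opposite strand cover 27.7% of its exon sequence. The 214-base CR40469 (X, 122493 to 122706) stood at 22.5, 19.3 and 15.1 CPM in elav5fne, at 14.2 and 27.8 CPM in elav5 and at 5.03, 8.36 and 7.57 CPM in Canton-S. Its log2 change was 1.33 in elav5fne (limma adjusted p = 0.0043) and 1.41 in elav5 (adjusted p = 0.019), and the call in elav5 was lost without elav5 replicate 2 or without Canton-S replicate 1 (adjusted p from 4.4e-05 to 0.096 and log2 change from 0.95 to 1.88 over 20 alternatives).

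Members that contain a miRNA gene were 20, and 18 of them reached 5 CPM in every genotype. Hsromega, described further below, is among them because it holds mir-4951. Of these 18, 6 were called higher in elav5fne and 4 lower, and 4 were called higher in elav5 and 1 lower. These are 33.3% and 22.2% in elav5fne, beside 30.6% and 30.9% of genes averaging at least 5 CPM. In elav5 they are 22.2% and 5.56%, beside 8.21% and 13.8%. The genes set beside the hosts were not held to 5 CPM in every genotype. Primary miRNA transcripts are cut and degraded as the miRNA is made, so their level does not give that of the mature miRNA, which was not measured here.

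CR31044 (3R, 29214562 to 29219667) carries mir-279 and mir-996, miRNAs that restrict the formation of certain sensory neurons. It stood at 60.8, 55.8 and 67.2 CPM in elav5fne, at 21.7 and 26.9 CPM in elav5 and at 16.1, 15.1 and 13.2 CPM in Canton-S. The genotypes do not overlap, and the log2 change was 1.98 in elav5fne (SE 0.12, limma adjusted p = 7.3e-06) and 0.68 in elav5 (SE 0.14, adjusted p = 0.015), and the call in elav5 was lost without elav5 replicate 2 (log2 change from 0.53 to 0.82 and adjusted p from 1.4e-05 to 0.079 over 20 alternatives). The translation factor gene eEF1gamma, 505 bases away on the same strand, changed by 0.76 in elav5fne.

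CR43334 (3L, 628435 to 643900) is the host of bantam, a miRNA that promotes growth and blocks cell death. Its level was 142, 135 and 215 CPM in elav5fne, 65.7 and 47.1 CPM in elav5 and 69.7, 63.7 and 69.0 CPM in Canton-S. elav5fne lay above both other genotypes, and its replicate 3 lay above its replicates 1 and 2. The log2 change was 1.24 in elav5fne (SE 0.19, limma adjusted p = 0.00097) and -0.27 in elav5 (SE 0.21, adjusted p = 0.40). elav5fne replicate 3 was also the highest library for CR43314 (2L, 11952200 to 11971094), the host of the sense organ miRNA bereft, at 11.1, 12.8 and 27.2 CPM in elav5fne, 5.76 and 2.72 CPM in elav5 and 2.95, 3.72 and 6.12 CPM in Canton-S. The same held for CR43650 (2R, 16829095 to 16839494), the host of mir-8, a regulator of growth and insulin signalling, at 6.64, 6.40 and 12.6 CPM in elav5fne, 5.19 and 2.75 CPM in elav5 and 4.74, 3.48 and 2.36 CPM in Canton-S.

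Summed gut and muscle markers, like these 3 miRNA hosts, were highest in elav5fne replicate 3. The markers also rose from replicate 1 to replicate 2, between which CR43334 and CR43650 did not rise. The summed level of 8 gut markers was 57.0, 194 and 509.7 CPM in elav5fne replicates 1 to 3, 26.9 and 25.6 CPM in elav5 and 42.3, 33.5 and 29.5 CPM in Canton-S, with 5 called higher in elav5fne. That of 11 muscle markers was 2759.6, 6213 and 15429 CPM in elav5fne, 2659.9 and 802 CPM in elav5 and 1645, 1634 and 1282 CPM in Canton-S, with 9 called higher in elav5fne. No marker of either list was at 0 in all libraries. Of all genes tested, 32.5% were called higher in elav5fne. Summed markers of other tissues were also highest in elav5fne replicate 3. In elav5fne replicates 1 to 3 they were 182, 222 and 293 CPM for trachea and cuticle and 1384, 1935 and 2561 CPM for fat body. They were 122, 80.8 and 159 CPM for hemocytes and 56.4, 54.2 and 59.1 CPM for germline. Summed markers of neurons, neuroblasts and progenitors, glia and ring gland were highest in other libraries. The part of other tissues in these values was not tested. Over 20 alternatives, those without elav5fne replicate 3 included, the log2 change of CR43334 in elav5fne stayed between 1.03 and 1.36 and its adjusted p between 1.9e-09 and 0.0054.

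CR43459 (3R, 10093761 to 10101356) holds mir-277 and mir-34, miRNAs studied for amino acid catabolism and for ageing of the brain. Its level was 70.4, 66.4 and 72.6 CPM in elav5fne, 31.3 and 30.03 CPM in elav5 and 29.6, 32.1 and 32.2 CPM in Canton-S, so that elav5 and Canton-S overlapped and elav5fne stood apart. It changed by 1.13 on the log2 scale in elav5fne (SE 0.07, limma adjusted p = 9.7e-06) and by -0.03 in elav5 (SE 0.08, adjusted p = 0.83). Fmr1, the fragile X gene of the fly, lies 64 bases away on the opposite strand and went the other way, averaging 82.2 CPM in elav5fne, 107 CPM in elav5 and 177 CPM in Canton-S (log2 changes -1.10 and -0.73 in elav5fne and elav5). CR45054 (3R, 10083381 to 10090525) lies upstream of CR43459 on its strand, and had 70.8, 60.7 and 59.1 CPM in elav5fne, 24.3 and 32.7 CPM in elav5 and 18.6, 21.6 and 24.9 CPM in Canton-S, with a log2 change of 1.51 in elav5fne (SE 0.15, limma adjusted p = 8.6e-05).

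CR45388 (3L, 18852573 to 18861363), the host of mir-315, an activator of Wingless signalling, rose in both mutants. It stood at 85.2, 74.6 and 75.5 CPM in elav5fne, at 55.6 and 75.6 CPM in elav5 and at 34.1, 35.5 and 32.9 CPM in Canton-S, with log2 changes of 1.17 (SE 0.12, limma adjusted p = 9.7e-05) in elav5fne and 0.91 (SE 0.13, adjusted p = 0.0059) in elav5. CR45387 lies within it on the same strand, so reads of the pair may not be separate. CR45387 averaged 16.3 ± 1.36 CPM in elav5fne, 10.1 ± 1.72 CPM in elav5 and 7.66 ± 1.29 CPM in Canton-S (SD, n = 3, 2 and 3). Exons on the opposite strand cover 54.5% of the exon sequence of CR45388, so its values are uncertain if counting ignored strand. CR45919, the host of mir-124, a miRNA of differentiated neurons, stood at 196, 196 and 162 CPM in elav5fne, 215 and 245 CPM in elav5 and 179, 158 and 177 CPM in Canton-S. It was not called in elav5fne (log2 change 0.10, SE 0.10, limma adjusted p = 0.40), and its call in elav5 (0.42, adjusted p = 0.037) was lost in 9 of 20 alternatives, among them those without elav5 replicate 2, elav5fne replicate 2 or any 1 of the Canton-S libraries (adjusted p from 0.0038 to 0.17).

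Among the members are 4 miRNA hosts of the Hox clusters, of which iab4, CR42721 and CR42651 were called lower in elav5fne. In the bithorax complex, which sets the identity of posterior segments, iab8 (3R, 16831116 to 16923231) and iab4 (3R, 16850004 to 16856497) are transcribed from opposite strands and host mir-iab-8 and mir-iab-4. iab4 stood at 19.9, 18.1 and 18.3 CPM in elav5fne, at 25.6 and 19.7 CPM in elav5 and at 30.5, 24.8 and 25.4 CPM in Canton-S, a log2 change of -0.49 in elav5fne (SE 0.13, limma adjusted p = 0.011). iab8 stood at 32.4, 30.6 and 27.0 CPM in elav5fne, at 32.3 and 14.0 CPM in elav5 and at 40.1, 43.0 and 45.1 CPM in Canton-S. Its elav5fne libraries all lay below those of Canton-S, but it was not called in elav5fne. The mean ratio of elav5fne to Canton-S was 0.702 for iab8 and 0.698 for iab4. Its elav5 libraries differ more than 2-fold from each other, and its call in elav5 (log2 change -0.97, SE 0.29, limma adjusted p = 0.0497) was lost in 15 of 20 alternatives, with log2 changes from -1.54 to -0.39 and adjusted p from 0.0021 to 0.12. These included leaving out elav5 replicate 2, elav5fne replicate 1 or 2, or any 1 of the Canton-S libraries. Exons of other genes cover 31.9% of the exon sequence of iab8 on its strand and 23.5% on the opposite strand, so its reads may not be separate.

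In the Antennapedia complex, CR42721 (3R, 6767050 to 6779728), the host of mir-993, and CR42651 (3R, 6808796 to 6816379), the host of mir-10, were lower in elav5fne than in either other genotype. CR42721 stood at 14.1, 13.5 and 13.4 CPM in elav5fne, at 23.8 and 25.5 CPM in elav5 and at 19.7, 19.8 and 23.3 CPM in Canton-S. CR42651 stood at 20.2, 21.4 and 18.1 CPM in elav5fne, at 33.4 and 44.7 CPM in elav5 and at 25.7, 28.1 and 27.9 CPM in Canton-S. In both, elav5 lay above Canton-S in every library and elav5fne below it. CR42721 was not called in elav5 (log2 change 0.23, limma adjusted p = 0.18). Against Canton-S, the log2 change in elav5fne was -0.57 for CR42721 (SE 0.10, limma adjusted p = 0.0017) and -0.43 for CR42651 (SE 0.12, adjusted p = 0.017), and against elav5 it was -0.80 and -0.93 (adjusted p = 0.00084 and 0.0012). The call of CR42651 in elav5fne was lost without Canton-S replicate 2 or 3 (adjusted p from 0.0021 to 0.054), and its call in elav5 (log2 change 0.49, adjusted p = 0.042) in 12 of 20 alternatives, among them those without elav5 replicate 2, elav5fne replicate 1 or 2 or any 1 of the Canton-S libraries (log2 change from 0.29 to 0.70, adjusted p from 0.0046 to 0.20). Of the remaining tested hosts, CR43651, CR45911, CR44206, CR45910, CR46004 and CR45347, which hold mir-14, mir-13 and mir-2, mir-184, mir-1000, mir-276b and mir-4973 genes in that order, were not called in either mutant. CR46194, the host of mir-281 genes, rose in elav5fne with a log2 change of 0.58, but it shares 362 bases of exon with Oda, the ornithine decarboxylase antizyme gene, on the same strand. Oda rose by 1.68 on the log2 scale, so their reads may not be separate. CR46006, the host of mir-276a, was called lower (-0.22), a call lost in 11 of 20 alternatives, among them leaving out any 1 of the 8 libraries (adjusted p from 0.020 to 0.16).

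**Figure D3:**
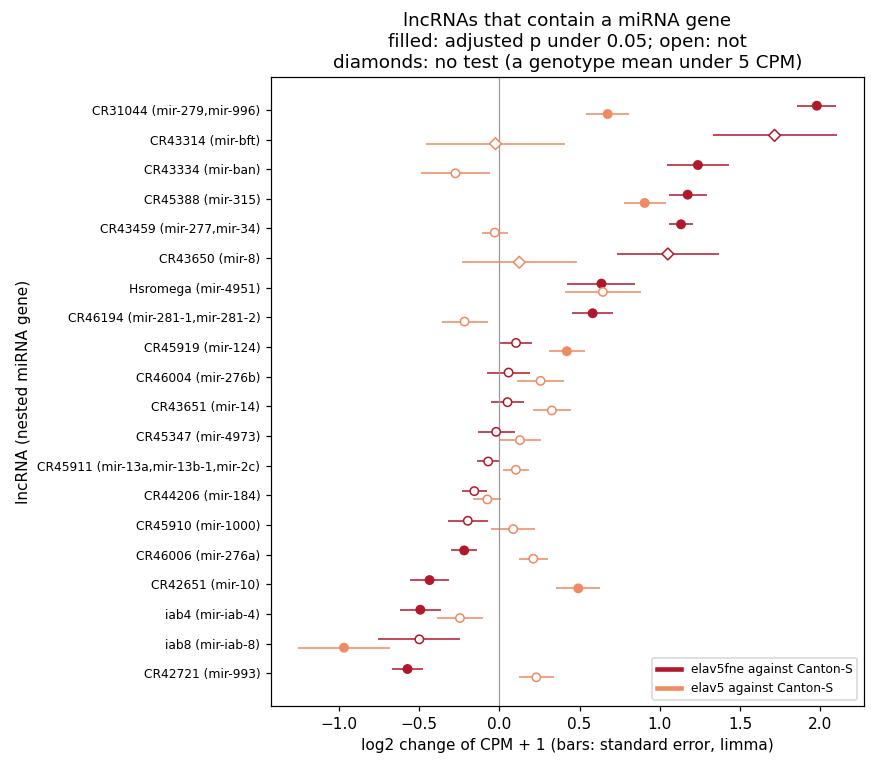
Log2 change of CPM + 1 (x axis, bars are the standard error from limma) of the 20 lncRNAs that contain a miRNA gene, in elav5fne and in elav5 against Canton-S. Filled points have an adjusted p under 0.05, open points do not, and diamonds mark members that were not tested; CR31044, CR43334 and CR43459 are well to the right in elav5fne, and CR42721 and iab4 to the left.

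Hsromega rose in elav5fne with a log2 change of 0.64 (SE 0.21, limma adjusted p = 0.032), its elav5fne libraries lying above those of Canton-S. In elav5 the change was 0.65 (SE 0.24, adjusted p = 0.094), and the elav5 libraries, at 2489 and 4142 CPM, enclosed those of elav5fne. The call in elav5fne was lost without Canton-S replicate 1 or 3 or without elav5fne replicate 1 or 2, and in edgeR (adjusted p from 0.0078 to 0.11 and log2 change from 0.47 to 0.74 over 20 alternatives). Of 7 genes for proteins of omega speckles, 3 fell in elav5fne and none rose (median log2 change -0.34), and 4 fell in elav5 and none rose (median -0.45), beside 26.7% and 11.8% of all genes lower in elav5fne and elav5. Hrb98DE and Hrb27C, hnRNP proteins, fell in both mutants, with log2 changes of -0.39 and -0.35 in elav5fne and -0.45 and -0.59 in elav5, and nonA, an RNA-binding protein needed for vision and courtship song, fell in elav5fne (-0.40).

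The alphagamma-element (3R, 12475336 to 12478267) is a heat-inducible repeat transcript of the Hsp70 locus at 87C. It stood at 7.98, 17.5 and 8.07 CPM in elav5fne, at 7.19 and 17.8 CPM in elav5 and at 2.34, 3.12 and 1.92 CPM in Canton-S. All mutant libraries lay above all Canton-S libraries, but 1 library of each mutant stood far above the rest, and the mean ratio to Canton-S was 4.55 in elav5fne and 5.07 in elav5. Annotated transposable elements cover 45.8% of its exons, so its reads may be shared with other copies. Hsp70Ba, the inducible chaperone gene nearest to it, averaged 230 CPM in elav5fne, 271 CPM in elav5 and 49.6 CPM in Canton-S and was not called in either mutant (log2 changes 2.46 and 2.67, limma adjusted p = 0.061 and 0.13).

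noe (3L, 17400272 to 17401348) was not called in either mutant. It stood at 22.3, 20.2 and 14.6 CPM in elav5fne, at 13.8 and 23.3 CPM in elav5 and at 22.4, 21.7 and 21.97 CPM in Canton-S. The gene whose intron holds it, blot, a transporter-like gene, averaged 63.6 CPM in elav5fne, 14.4 CPM in elav5 and 19.0 CPM in Canton-S (log2 change 1.69 in elav5fne, limma adjusted p = 0.00017), so host and lncRNA did not change alike.

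CR42862, first by mean CPM over all 8 libraries, and CR34335, first by CPM per kb, were called in elav5 in opposite directions. CR42862 shares 246 bases of exon with CG33229, and its log2 change was -0.61 in elav5 (SE 0.14, limma adjusted p = 0.024) and -0.11 in elav5fne (SE 0.13, adjusted p = 0.49). CG33229 was called higher in elav5, with a log2 change of 0.70. CR34335, in an intron of the adhesion gene DIP-alpha, stood at 624, 522 and 465 CPM in elav5fne, at 456 and 717 CPM in elav5 and at 345, 320.5 and 383 CPM in Canton-S, with log2 changes of 0.61 in elav5fne and 0.71 in elav5 (SE 0.18 and 0.20, limma adjusted p = 0.019 and 0.043), while DIP-alpha changed by -0.48 in elav5fne. These calls were lost in several settings that left out 1 library, in which fewer of all genes were called as well. In elav5, both were lost without elav5 replicate 2 or any 1 of the Canton-S libraries and that of CR34335 also without elav5fne replicate 2 (adjusted p from 0.0011 to 0.080 and log2 change from -0.82 to -0.40 for CR42862, adjusted p from 0.00093 to 0.19 and log2 change from 0.39 to 1.04 for CR34335), and in elav5fne that of CR34335 was lost without Canton-S replicate 1 or 2 or elav5fne replicate 1 (0.0014 to 0.066).

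Among lncRNAs that share exon sequence with a coding gene, CR42549 and CR33963 rose most. CR42549 (3R, 9548104 to 9551806) stood at 172, 164 and 161 CPM in elav5fne, at 94.4 and 135 CPM in elav5 and at 40.0, 43.7 and 44.1 CPM in Canton-S. Its log2 change was 1.93 in elav5fne (SE 0.12, limma adjusted p = 9.3e-06) and 1.39 in elav5 (SE 0.14, adjusted p = 0.0014), whereas mura, with which it shares 97 bases of exon on the same strand, changed by -0.15 and -0.33 and was not called. CR33963 (X, 12659462 to 12660632) stood at 24.1, 26.2 and 28.1 CPM in elav5fne, at 7.89 and 7.93 CPM in elav5 and at 5.35, 5.21 and 5.36 CPM in Canton-S, and its log2 change was 2.10 in elav5fne (SE 0.10, limma adjusted p = 2.8e-06). It shares 186 bases with Tis11, a gene for a protein that promotes decay of AU-rich messenger RNAs, and Tis11 rose by 2.54 in elav5fne, so their reads may not be separate. In elav5 the change of CR33963 was 0.50 (adjusted p = 0.023), a call that was lost without any 1 of elav5 replicates 1 and 2 and Canton-S replicates 1 and 2 (adjusted p from 0.00053 to 0.079, log2 change from 0.33 to 0.64).

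Of the 22 members that lie in an intron on the strand of the host gene, 16 reached 5 CPM in every genotype, and 5 of these were called higher and 3 lower in elav5fne, with a median log2 change of -0.20. These are 31.2% and 18.8%, beside 30.6% and 30.9% of genes averaging at least 5 CPM, a set not held to 5 CPM in every genotype. Of the 16, CR34335 (0.61), CR32218 (0.97), CR43825 (0.69), CR45979 (0.55) and CR45808 (0.54) were called higher, and CR45941 (-0.63), CR45825 (-0.62) and CR44901 (-0.31) lower. CR32218 (3L, 19895216 to 19896391) stood at 16.5, 17.0 and 16.4 CPM in elav5fne, at 6.86 and 7.72 CPM in elav5 and at 8.55, 7.36 and 8.15 CPM in Canton-S (limma adjusted p = 0.00016 in elav5fne), and lies within introns of both Mi-2, a chromatin remodeller, and Su(Tpl), an elongation factor gene, whose log2 changes in elav5fne were -0.38 and 1.06. CR44978, in an intron of the receptor phosphatase gene Lar on the opposite strand, had log2 changes of -0.02 in elav5fne and -0.04 in elav5 and was not called, whereas Lar changed by -1.50 in elav5fne.

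Each member was set beside its coding neighbours. Only members at 5 CPM in every genotype were used. Across 17 pairs of an lncRNA and the gene whose intron holds it on the same strand, the log2 changes in elav5fne against Canton-S had a Pearson r of 0.19. It was 0.60 across 10 pairs that share exon sequence on the same strand, and 0.11 across 25 pairs of a member and the nearest coding gene within 10 kb. With the low members included, CR45900 left out, the values were 0.48 over 23, 0.65 over 12 and 0.43 over 30 pairs, so r within introns and to the nearest gene rested largely on members selected through the genotypes where they are high. The points share the same 6 libraries, and paired genes may share reads, so the values describe these pairs only. In elav5 against Canton-S the values of r were -0.01, -0.30 and -0.23 over the same 17, 10 and 25 pairs. Of the 25 pairs with a nearest gene, both genes were called in elav5fne in 12, and they moved the same way in 6 of these and opposite ways in 6.

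**Figure D4:**
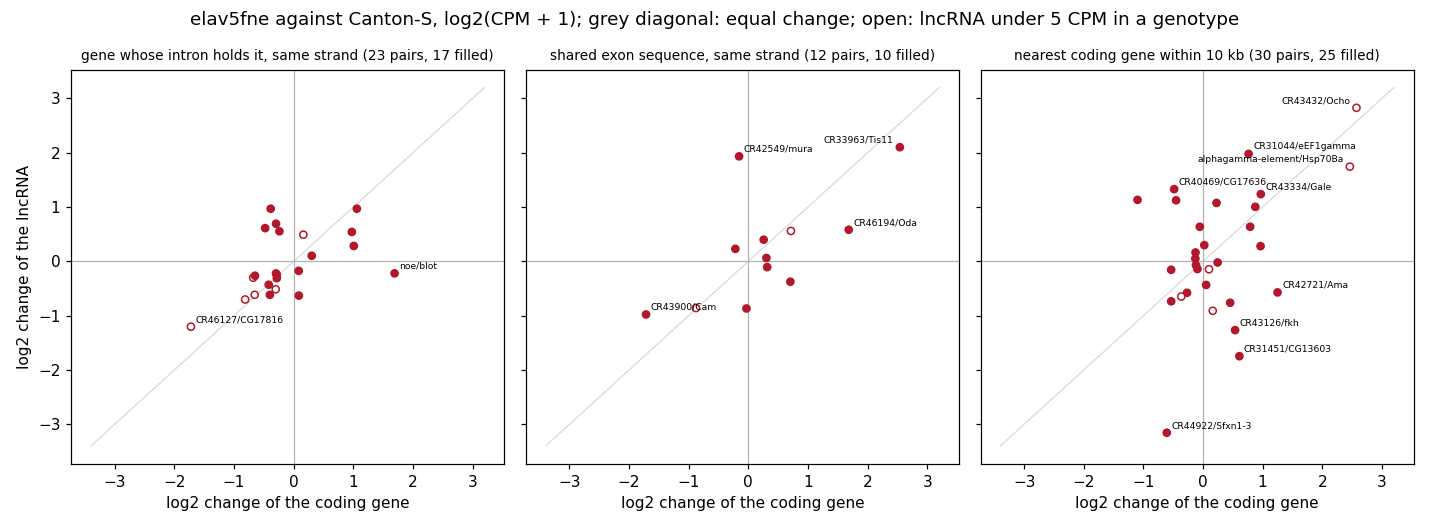
Log2 change of each lncRNA (y axis) against that of its coding neighbour (x axis), elav5fne against Canton-S, for genes whose intron holds the lncRNA, genes that share exon sequence with it and the nearest coding gene within 10 kb; the grey diagonal marks an equal change, and open points are lncRNAs under 5 CPM in a genotype. CR33963 and Tis11, and CR43432 and Ocho, lie near the diagonal, while CR44922, CR31451, CR42549 and noe lie far from it.

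Replicates of a genotype differed from each other at some members. The highest library exceeded the lowest by more than 1.5 times at 11 members in elav5fne, at 12 in elav5 and at 6 of 92 in Canton-S, and the median of this ratio over the members was 1.20, 1.18 and 1.17 in elav5fne, elav5 and Canton-S. In elav5 these included Hsromega, CR34335, iab8, the alphagamma-element and CR40469, each described above, and in elav5fne CR43334, CR43314 and CR43650.

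Other genes of RNA handling were read from lists, to be set beside 32.5% of all genes called higher and 26.7% lower in elav5fne, and 8.29% and 11.8% in elav5. Of 9 genes for snoRNP proteins, which guide modification of ribosomal and small nuclear RNA, 1 rose and 6 fell in elav5fne (median log2 change -0.41), and 7 fell in elav5 (median -0.95). The only rise was that of CG4038, at 11.4 ± 0.953 CPM in elav5fne and 6.95 ± 0.428 CPM in Canton-S (SD, n = 3 each). Of 11 genes of the nuclear exosome, which trims and degrades non-coding RNA, 6 fell in elav5fne (median -0.51) and 10 in elav5 (median -0.76), and none rose. Csl4, a cap subunit of the exosome, averaged 6.12 ± 0.879 CPM in elav5fne, 6.72 ± 0.411 CPM in elav5 and 12.0 ± 2.09 CPM in Canton-S (SD, n = 3, 2 and 3). Of 6 genes of nonsense-mediated decay, which degrades transcripts with early stop codons, 4 rose in elav5fne (median 0.39) and none was called in elav5 (median -0.17). Upf1, its helicase, averaged 107 ± 5.25 CPM in elav5fne, 73.2 ± 1.60 CPM in elav5 and 83.8 ± 4.14 CPM in Canton-S (SD, n = 3, 2 and 3).

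Genes of miRNA production formed a list chosen after their values were seen. Of its 6 genes, 1 rose and 2 fell in elav5fne, and 2 fell in elav5. Of all genes tested, 32.5% were called higher and 26.7% lower in elav5fne, and 11.8% lower in elav5. drosha, whose enzyme cuts primary miRNAs, averaged 29.7 ± 1.62 CPM in elav5fne, 29.9 ± 1.19 CPM in elav5 and 41.9 ± 1.49 CPM in Canton-S (SD, n = 3, 2 and 3), with log2 changes of -0.48 in elav5fne and -0.48 in elav5 (limma adjusted p = 0.0011 and 0.011). Ranbp21, the fly exportin of miRNA precursors, fell as well, with log2 changes of -0.57 and -0.67 in elav5fne and elav5. AGO1, which binds the mature miRNA, rose in elav5fne (log2 change 0.53) and changed by 0.04 in elav5.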

How the data were processed

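Total RNA libraries were made with a stranded TruSeq kit and reads were aligned with HISAT2 to dm6, per the labels' protocols and the submitters' processing notes; which counter and annotation were used, and whether strand was, is not given in the sources used here. The deposited table gives CPM per gene, made by the authors from reads counted in genes. Its steps gave whole reads for 100% of values above 0 (tolerance 0.01). Symbols that were missing or had become dates, 56 in all, were filled from the gene ID.

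Genotype means were fitted with limma-trend (limma 3.58.1, R 4.3.3) on log2(CPM + 1), a scale that understates changes of low genes, over the 10575 genes that reached 1 CPM in 2 or more libraries, with Benjamini-Hochberg adjustment over all of them and a threshold of 0.05. elav5, with 2 libraries, shares the spread of the other genotypes. Each of the 3 comparisons was run on simulated data with known changes. The simulation gave all genes a common spread and changed far fewer genes than were called here. It therefore cannot show how the fit performs on these data. edgeR 4.0.16 and DESeq2 1.42.0 on recovered reads, other pseudocounts, filters, scalings and member thresholds, and each library left out were alternatives. Positions and neighbours come from the Ensembl annotation of the same assembly.

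The members, lists and tests were chosen with earlier results of these data known. Named members are those with a name other than a CR number, the 6 highest, the 10 largest rises and falls without overlap against Canton-S (6 between mutants) and those absent from a genotype; some are summarised, and others are named as miRNA hosts, neighbours or examples of a group, chosen after their values were seen. The lists held 123 entries in all, of which 121 matched. Besides those given above, marker lists of glia, trachea and cuticle, hemocytes, fat body, ring gland and germline were measured. Of their 9, 7, 7, 4, 5 and 6 genes tested, 2, 2, 3, 0, 0 and 4 were called higher in elav5fne. In the same order, 2, 0, 0, 0, 4 and 0 were called lower. Of all genes tested, 32.5% were called higher and 26.7% lower in elav5fne.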

Additional observations from a re-analysis of the deposited data

How the results depend on the processing

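The counts of members called in elav5fne against Canton-S (31 higher, 31 lower) stayed between 23 and 31 higher and between 25 and 37 lower under other pseudocounts, filters, scalings, tools and left-out libraries. These counts, like the other counts of all members below, include those that passed the rule only through genotypes where they are high. Among the 69 members at 5 CPM in every genotype, 21 were called higher and 19 lower in elav5fne against Canton-S. Of the same 69, 13 were higher and 4 lower in elav5 against Canton-S, and 13 and 19 in elav5fne against elav5. Counts under other settings are not given for the 69 alone, so how these move is not shown. At other member thresholds the number of members differs: 54 higher and 52 lower of 177 at a mean of 2 CPM (30.5% and 29.4%), and 16 lower of 56 at 10 CPM (28.6%), beside 33.3% and 33.3% of the 93. In elav5fne against elav5 (20 higher, 27 lower), 41 were lower under quantile normalization, 36 higher and 46 lower of the 177 members at 2 CPM (20.3% and 26.0%), and 13 lower of the 56 at 10 CPM (23.2%). In elav5 against Canton-S (19 higher, 7 lower), 12 were higher and 2 lower with no filter on low values, 3 were lower under quantile normalization, 3 were lower with edgeR and no filter, and 12 of the 56 members at 10 CPM were higher (21.4%). With each library left out in turn they ranged from 5 to 19 higher and from 2 to 9 lower; where elav5 kept 1 library, that library is assumed to vary like those of the other genotypes. Without elav5 replicate 2 and elav5fne replicate 3 together, a setting chosen after seeing the data, 8 were higher. The replicate block gave 7 higher and 3 lower in elav5 against Canton-S, 29 and 27 in elav5fne against Canton-S, and 18 and 19 in elav5fne against elav5. Libraries with the same number did not deviate together (correlations from -0.36 to 0.11). So few libraries per genotype cannot show whether the numbers mark a shared day or batch, and the labels do not say. edgeR and DESeq2 gave 29 and 30 higher and 34 and 32 lower in elav5fne against Canton-S, 18 and 21 higher and 5 and 8 lower in elav5 against Canton-S, and 17 and 19 higher and 32 and 32 lower in elav5fne against elav5. Of calls of named members reaching 5 CPM in every genotype, 20 of 24 held in all 20 alternatives in elav5fne against Canton-S, 5 of 14 in elav5 against Canton-S and 16 of 19 in elav5fne against elav5, and none changed sign. The causes of these moves were not tested. Presence in all 3 genotypes ranged from 88 to 92 members. The 2 elav5 libraries and low members near 1 CPM limit the precision.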
